A study of Mus musculus with 4 samples.

Results

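Emx1, Emx2, Lhx2, Dmrta2, Neurod2, Neurod6, Bhlhe22, Zbtb20 and Lmo3 are 9 genes grouped here as identity factors of the dorsal telencephalon. This part of the embryonic forebrain becomes cerebral cortex and hippocampus. The 9 genes were selected by gene name in the deposited tables, with earlier results of the same libraries known. All 9 were in both tables and all 9 passed the filter on low counts, out of 19150 genes in both tables and 15708 genes tested. The libraries came from brains of C57BL/6 mouse embryos at E13.5, an age at which deep-layer cortical neurons are being born. The series is about deletion of macroH2A, a histone H2A variant with a large extra domain, and compares 2 knockout libraries (KO2 and KO4) with 2 wild-type libraries (WT6 and WT8). The labels give no targeted allele, no Cre driver and no litter, and do not say whether a library holds 1 embryo or a pool. P-values therefore measure the spread between these libraries, which may be technical.

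In the dorsal telencephalon, patterning factors act first in the dividing progenitors and set the territory apart from its neighbours. The homeodomain proteins Emx1 and Emx2, the LIM homeodomain protein Lhx2 and the DM-domain protein Dmrta2 belong to this class. Lhx2 keeps cortical progenitors from taking the fate of the cortical hem, the signalling centre at the medial edge, and Emx2 promotes caudal and medial areas. Neurons that leave the cell cycle then switch on the basic helix-loop-helix factors Neurod2, Neurod6 and Bhlhe22, which control maturation, area identity and axon growth of cortical projection neurons. Zbtb20, a BTB zinc finger repressor, marks the hippocampal field and later glia, and Lmo3 is a LIM-only protein that binds other transcription factors and not DNA. Several of them, such as Emx2, Lhx2, Zbtb20 and Lmo3, are also made outside the cortex.

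Depth was similar, with between 16470090 and 18136745 reads counted per library. H2afy, which encodes macroH2A1, had 74.6 and 69.2 CPM (the read count scaled to the TMM-adjusted size of the library) in KO2 and KO4, against 322 and 350 CPM in WT6 and WT8. The fitted log2 difference was -2.22 with an SE of 0.10 (adjusted p = 0.00167 in edgeR's quasi-likelihood test), and the call was lost without WT6 (adjusted p = 0.314). H2afy2, which encodes macroH2A2, had 190 and 206 CPM in KO, against 192 and 182 CPM in WT. H2afy was the single gene called by edgeR, 0.00637% of those tested. Of 12 fixed markers of diencephalon, midbrain and hindbrain, 5 could be tested, and these summed to 35.8 and 34.7 CPM in KO, against 23.3 and 41.3 CPM in WT.

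The wild-type libraries differed from each other in regional markers. WT6 stood apart from the other libraries in ventral telencephalon genes, while in the excitatory lineage WT6 and WT8 lay at opposite ends. All 16 fixed ventral telencephalon genes, among them the Dlx homeobox genes of GABAergic progenitors, were lowest in WT6. Their summed level was 1492 and 1388 CPM in KO2 and KO4, against 874 CPM in WT6 and 1585 CPM in WT8. The 14 genes of the excitatory lineage, from the proneural Neurog2 to the vesicular glutamate transporter gene Slc17a7, were highest in WT6 for 11 and lowest in WT8 for 10. Their sum was 1698 and 1841 CPM in KO2 and KO4, against 2030 and 1544 CPM in WT6 and WT8. The lists were fixed with earlier results of these data known, and the share of all genes with these orders was not counted. These counts are therefore a description. In whole tissue, fewer cells of a type and less RNA per cell cannot be told apart. The part of regional composition in the results that follow was not tested.

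**Figure D1:**
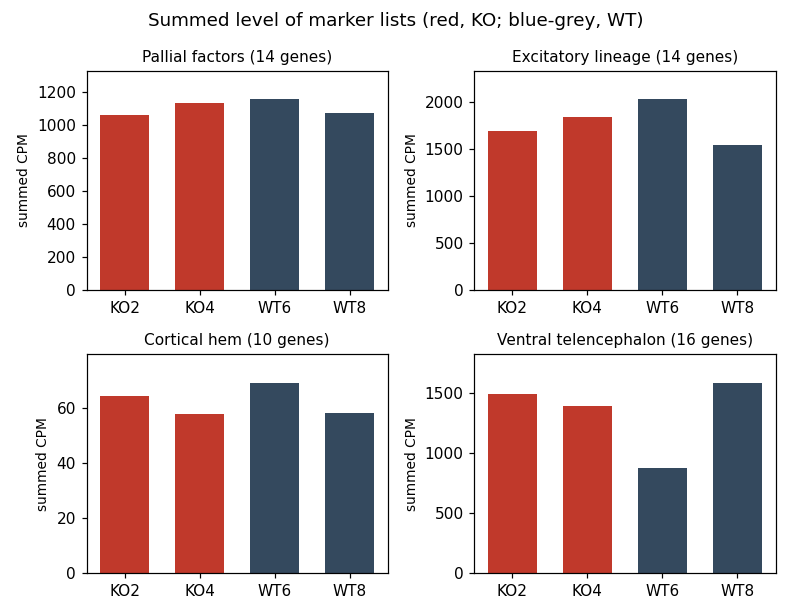
Summed CPM (vertical axes, from 0) of 4 fixed marker lists in each library (horizontal axes), with KO in red and WT in blue-grey. Ventral telencephalon genes sum to 874 CPM in WT6 and to 1388 CPM or more in the other libraries, and the excitatory lineage has its highest sum in WT6.

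Among the patterning factors, and among all 9 genes, the log2 fold change farthest from 0 was that of Emx1, which was at a similar lower level in both KO libraries. Emx1 had 2666 and 2515 reads in KO2 and KO4, against 3342 and 3151 reads in WT6 and WT8. In CPM these were 145 and 137 in KO2 and KO4, against 194 and 197 in WT6 and WT8. The genotypes did not overlap, and the spread within each was small, with a mean ± SD of 141 ± 5.79 CPM in KO, against 196 ± 2.16 CPM in WT (n = 2 each). For Emx1 the log2 CPM ratio of WT6 over WT8 was -0.02. The fitted log2 fold change was -0.47 (SE 0.08, 95% interval from -0.67 to -0.27), or 0.722 times the WT level. It is given as a description because the gene was chosen with this contrast known. It did not pass over all genes (edgeR adjusted p = 0.743), nor with DESeq2 (adjusted p = 0.175) or limma-voom (0.744). Without WT8 the log2 fold change of Emx1 was -0.45, in a fit that holds WT6 alone on the wild-type side.

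The other patterning factors lay on the same side with smaller differences. Lhx2 had 358 and 322 CPM in KO2 and KO4, against 436 and 368 CPM in WT6 and WT8. KO2 and WT8 were close, and for Lhx2 the gap between these libraries was smaller than the spread within either genotype. Emx2, the paralogue of Emx1, had 41.5 and 40.3 CPM in KO2 and KO4, against 48.2 and 45.6 CPM in WT6 and WT8. Dmrta2 had 71.0 and 68.3 CPM in KO2 and KO4, against 78.9 and 75.6 CPM in WT6 and WT8. For each of these genes both KO values were below both WT values, and for Emx2 and Dmrta2 the libraries of a genotype lay within 0.08 of each other on the log2 scale. The log2 fold changes were -0.24 for Lhx2 (SE 0.11), -0.20 for Emx2 (SE 0.09) and -0.15 for Dmrta2 (SE 0.08), and the 95% interval of each of them reached above 0. None of these 3 passed in edgeR, each with an adjusted p of 0.743. Of these 3, Lhx2 moved most on leaving out a library, to -0.36 without WT8 and -0.12 without WT6.

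**Figure D2:**
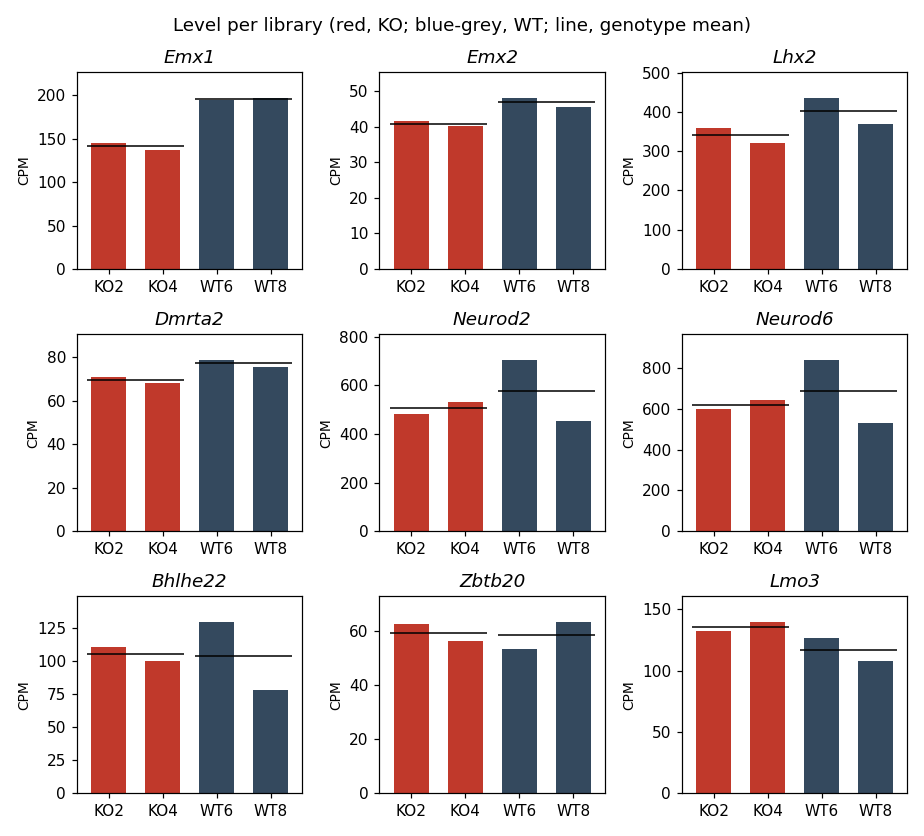
CPM (vertical axes, from 0) of each of the 9 genes in each library (horizontal axes), KO in red and WT in blue-grey, with a line at each genotype mean of 2 libraries. Emx1 lies between 137 and 145 CPM in KO and between 194 and 197 CPM in WT, while Neurod2, Neurod6 and Bhlhe22 have their highest and lowest values in WT6 and WT8.

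The neuronal bHLH factors differed more between the wild-type libraries than between the genotypes. Neurod6 had 10938 and 11761 reads in KO2 and KO4, against 14441 in WT6 and 8465 in WT8. This was 597 and 642 CPM in KO, against 839 and 530 CPM in WT. Both KO libraries thus lay between the WT libraries. Neurod2 gave 480 and 529 CPM in KO2 and KO4, against 705 CPM in WT6 and 452 CPM in WT8. Bhlhe22 followed with 111 and 99.8 CPM in KO2 and KO4, against 130 CPM in WT6 and 78.2 CPM in WT8. For all 3 genes WT6 was highest, WT8 was lowest and the KO libraries were in between.

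WT6 exceeded WT8 by 0.64 for Neurod2, 0.66 for Neurod6 and 0.73 for Bhlhe22 on the log2 scale. Of all genes tested, 11.0%, 10.3% and 8.79% had a gap between the WT libraries at least as large as those of Neurod2, Neurod6 and Bhlhe22. KO2 and KO4 were nearer to each other, at -0.14 for Neurod2, -0.11 for Neurod6 and 0.15 for Bhlhe22 (KO2 over KO4). The log2 fold change of KO over WT was -0.20 (SE 0.20) for Neurod2, -0.14 (SE 0.20) for Neurod6 and 0.02 (SE 0.22) for Bhlhe22. Their sign turned with the wild-type library that was kept. Neurod2 and Neurod6 had edgeR log2 fold changes of -0.48 and -0.43 without WT8, in a fit that holds WT6 alone on the wild-type side. Without WT6 these log2 fold changes were 0.16 and 0.22.

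**Figure D3:**
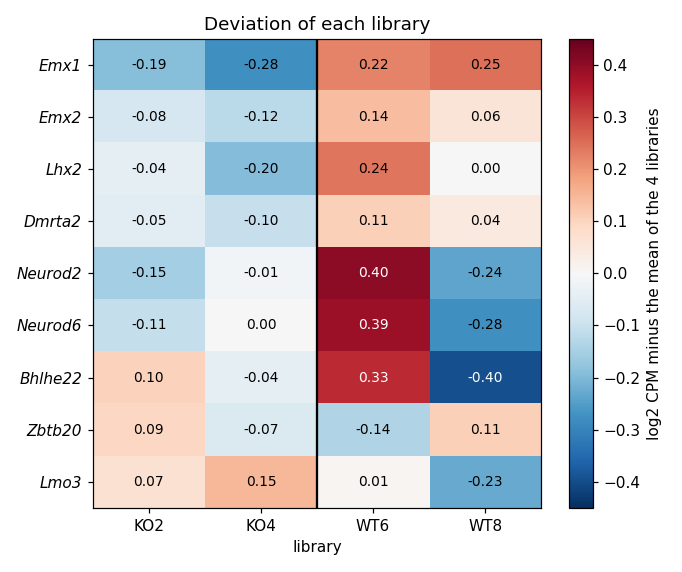
Log2 CPM of each gene (rows) in each library (columns, KO left of the line) after subtracting the gene's mean over the 4 libraries, in colour and as a number. Emx1 is negative in both KO columns and positive in both WT columns, whereas Neurod2, Neurod6 and Bhlhe22 reach 0.33 to 0.40 in WT6 and are negative in WT8.

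Lmo3 was the one gene of the 9 with both KO libraries above both WT libraries. It had 132 and 140 CPM in KO2 and KO4, against 127 and 108 CPM in WT6 and WT8. Its log2 fold change was 0.21, with an SE of 0.10 and an edgeR adjusted p of 0.743. KO2 and WT6 differed by 0.06 on the log2 scale, while KO4 exceeded WT8 by 0.38. The fitted log2 fold change of Lmo3 was 0.11 without WT8 and 0.34 without WT6. Zbtb20 had 62.7 and 56.2 CPM in KO2 and KO4, against 53.5 and 63.4 CPM in WT6 and WT8, and WT6 was its lowest library. The genotypes overlapped for Zbtb20 and its log2 fold change was 0.02 (SE 0.11).

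Over all 9 genes, 6 had a log2 fold change below 0 and 3 above it, with a median of -0.15, beside a median of -0.01 over all genes tested, of which 51.1% lay below 0. Both KO libraries were below both WT libraries for 4 of the 9, beside 19.4% of all genes tested, and above them for 1 of the 9, beside 20.1%. As the genes were chosen with this contrast known, nothing is read from these counts. On all 4 libraries the edgeR test called 0 of the 9 genes, beside 0.00637% of all genes tested in either direction. Of the 9, 1 (Emx1) had an unadjusted p under 0.05 in edgeR, beside 4.7% of all genes tested. DESeq2 and limma-voom on all 4 libraries also called 0 of the 9. For fits without 1 library, only log2 fold changes are given for the 9 genes, as 1 genotype then has a single library.

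The authors compared the libraries as KO2 with WT6 and KO4 with WT8, and the authors' deposited table of each pair shows how far the 9 genes depend on the pair. In the authors' deposited table for KO2 over WT6, 7 of the 9 were lower and 1 was higher at an adjusted p under 0.05, beside 8.67% and 8.58% of all listed genes. In the authors' deposited table for KO4 over WT8, 2 were lower and 4 were higher, beside 15.2% and 23.8%. In the authors' deposited tables Neurod2 stood at -0.54 (adjusted p = 2.17e-158) in the first pair and at 0.29 (adjusted p = 1.97e-37) in the second. Such a test on the reads of 2 libraries compares those libraries and not the genotypes. Emx1 stood at -0.41 and -0.46 in the authors' deposited tables, and Lhx2 at -0.27 and -0.13, each past that threshold in both pairs. None of the 9 carried the authors' mark of significance in either deposited table.

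**Figure D4:**
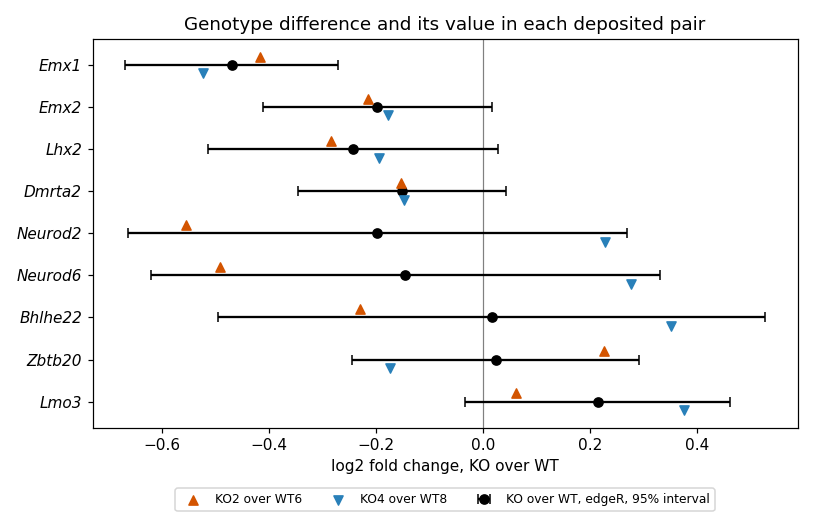
Log2 fold change of KO over WT (horizontal axis) for the 9 genes (rows): black points are the edgeR fit on all 4 libraries with 95% intervals, and triangles are the log2 CPM ratios of KO2 over WT6 (up) and KO4 over WT8 (down). The triangles lie on the same side of 0 for Emx1, Emx2, Lhx2, Dmrta2 and Lmo3, and on opposite sides for Neurod2, Neurod6, Bhlhe22 and Zbtb20.

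Per length of annotated exon, Neurod6 was the most abundant of the 9 genes and Zbtb20 the least. Neurod6 had 303 ± 61.9 CPM per kilobase of exon (mean ± SD over the 4 libraries) and Neurod2 172 ± 36.1. Lhx2 at 84.5 ± 10.9 and Emx1 at 77.2 ± 14.5 followed, and their libraries overlapped. Bhlhe22 at 31.3 ± 6.43, Dmrta2 at 25.1 ± 1.63 and Lmo3 at 24.7 ± 2.67 were not apart beyond their spread either. Emx2 came lower at 14.6 ± 1.22, below every library of the genes above it. Emx1 was therefore present at a higher level per length than its paralogue in all 4 libraries. Zbtb20 had 1.92 ± 0.16 per kilobase, over an exon union of 30730 bases from 21 annotated transcripts, so a shorter isoform in use would make this value too low.

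**Figure D5:**
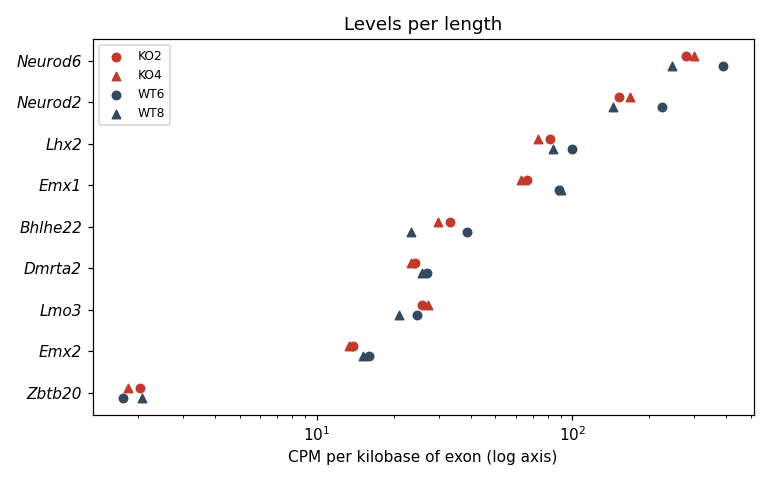
CPM per kilobase of exon (log horizontal axis) for the 9 genes (rows, ordered by mean), with 1 point for each library, KO in red above WT in blue-grey. Neurod6 lies between 247 and 390 and Zbtb20 between 1.74 and 2.06, and the points of Lhx2 and Emx1 overlap.

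The 9 genes lie on 7 chromosomes and differ widely in structure. All positions are on GRCm38 and equal to those of GENCODE M21. Emx1 (ENSMUSG00000033726) spans chr6:85187438-85204462 on the plus strand, Emx2 (ENSMUSG00000043969) chr19:59458372-59465357 on the plus strand, and Lhx2 (ENSMUSG00000000247) chr2:38339281-38369733 on the plus strand. Dmrta2 (ENSMUSG00000047143) spans chr4:109978053-109983687 on the plus strand. The neuronal bHLH genes are compact: Neurod2 (ENSMUSG00000038255) spans 4234 bases at chr11:98325415-98329648 on the minus strand, Neurod6 (ENSMUSG00000037984) 3442 bases at chr6:55677822-55681263 on the minus strand, and Bhlhe22 (ENSMUSG00000025128) is a single exon of 3344 bases at chr3:18054174-18057517 on the plus strand. Zbtb20 (ENSMUSG00000022708), at chr16:42875881-43642602 on the plus strand, covers 766722 bases, and Lmo3 (ENSMUSG00000030226), at chr6:138362918-138581968 on the minus strand, covers 219051 bases.

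Some of these genes overlap other annotated genes, and the sources used here do not say whether counting used strand. Emx2os, on the opposite strand, shares 264 exonic bases with Emx2. It had 8.13 and 6.55 CPM in KO2 and KO4, against 7.96 and 7.64 CPM in WT6 and WT8, and the genotypes overlapped. Reads from Emx2 and Emx2os over the shared bases cannot be told apart, so the Emx2 values carry that uncertainty. Inside Lhx2 the antisense gene Gm27197, which shares no exonic base with it, had 64 and 51 reads in KO2 and KO4, against 84 and 80 in WT6 and WT8. Its log2 fold change was -0.66, with an SE of 0.23 and an edgeR adjusted p of 0.743. Gm13584, also antisense inside Lhx2, had 13 and 15 reads in KO, against 8 and 8 in WT. A830011K09Rik, antisense inside Lmo3 without a shared exonic base, had 7.80 and 5.73 CPM in KO, against 6.92 and 7.51 CPM in WT, and the processed pseudogene BC002163 inside Zbtb20 had 52 and 20 reads in KO, against 27 and 42 in WT. Gm37946, also inside Zbtb20, had at most 5 reads in a library. Zbtb20 also shares 104 exonic bases with the antisense gene Gm9968 and 83 with the microRNA gene Mir568, so its counts are uncertain over those bases.

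The windows before the RefSeq starts of the patterning genes and of the other genes differed in base composition. RefSeq promoter sequences on GRCm38.p6 were matched for 8 of the 9 genes, all but Bhlhe22, with a pair of starts for Lhx2, which makes 9 windows. In the 250 bases before the start, GC content was 75.6% for Emx1, 67.2% for Emx2, 61.6% for Dmrta2 and 72.8% and 68.4% for the starts of Lhx2. It was 52.8% for Neurod2, 46.0% for Neurod6 and 44.8% for Zbtb20, with Lmo3 between these values, beside a median of 52.4% over 32851 promoters. CpG dinucleotides numbered 30 for Emx1 and 3 for Neurod6, beside a median of 6. The windows of Emx1, Emx2, Zbtb20 and the Lhx2 start with 68.4% lie inside the annotated span of their gene. They therefore do not lie before the first annotated base of the gene. For Zbtb20 the window begins at 43247034, in a span that begins at 42875881, and stands for a single start of a gene with 21 annotated transcripts. The sequences of Lhx2, Neurod2 and Neurod6 are shown because they contrast a patterning factor with the pair of neuronal factors whose levels followed each other across the libraries. Each is printed in the direction of its gene and lies outside the annotated transcripts of that gene. They are Lhx2 at chr2:38339031-38339280 on the plus strand, Neurod2 at chr11:98329649-98329895 on the minus strand and Neurod6 at chr6:55681264-55681513 on the minus strand, and capitals mark the motif CAGATG.
Lhx2: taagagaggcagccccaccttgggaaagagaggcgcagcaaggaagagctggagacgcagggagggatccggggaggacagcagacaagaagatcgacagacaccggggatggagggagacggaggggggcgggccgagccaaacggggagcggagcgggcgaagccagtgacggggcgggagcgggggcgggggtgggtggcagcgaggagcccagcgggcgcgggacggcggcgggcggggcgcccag
Neurod2: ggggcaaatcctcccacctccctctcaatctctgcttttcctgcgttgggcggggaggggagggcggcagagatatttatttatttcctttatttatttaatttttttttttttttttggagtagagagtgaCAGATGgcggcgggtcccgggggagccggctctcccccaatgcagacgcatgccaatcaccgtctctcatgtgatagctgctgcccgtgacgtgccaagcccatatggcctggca
Neurod6: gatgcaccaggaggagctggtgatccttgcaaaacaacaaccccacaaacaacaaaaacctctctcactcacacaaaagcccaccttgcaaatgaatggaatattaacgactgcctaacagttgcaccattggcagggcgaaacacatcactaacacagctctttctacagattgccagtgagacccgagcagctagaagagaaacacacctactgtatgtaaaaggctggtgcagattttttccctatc

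CAGATG, the E-box form that NeuroD factors bind, was searched on both strands and found in 1 of the 9 windows, beside 14.4% of all promoter windows of the same length. The match is in the window of Neurod2, where its first base lies at -118 from the RefSeq start. A second E-box form, CAGCTG, was in 0 of the 9 windows, beside 13.0% of all windows. The homeodomain core TAATTA was in 0 of the 9, beside 4.84%. The TATA box letters TATAAA, on either strand, were in 0 of the 9, beside 12.4%. The matches were counted for each motif on its own, whether or not they overlapped another. A missing match says only that these letters are not in these 250 bases.

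Other factors of the pallium, the dorsal telencephalic territory, had log2 fold changes close to 0 in most cases. Of 14 fixed pallial factors tested, 0 rose and 0 fell in edgeR, and DESeq2 and limma-voom also called 0. At an unadjusted p under 0.05 there was 1 of the 14, beside 4.7% of all genes tested: Dmrt3, a DM-domain relative of Dmrta2. Their median log2 fold change was -0.03, with 6 above 0 and 8 below. Dmrt3 had 8.24 and 9.17 CPM in KO2 and KO4, against 11.8 and 11.1 CPM in WT6 and WT8, a log2 fold change of -0.40 with an SE of 0.16 and an edgeR adjusted p of 0.743. Fezf2, a factor of deep-layer projection neurons, had 163 and 164 CPM in KO, against 224 CPM in WT6 and 158 CPM in WT8, so that WT6 alone was high. The Wnt effector gene Lef1 stood at a log2 fold change of -0.17 (SE 0.15).

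In the excitatory lineage, 9 of 14 genes had the order of the neuronal bHLH factors, with WT6 highest and WT8 lowest. The share of all genes tested with this order was not counted. Of the 14 tested, 0 rose and 0 fell in edgeR, DESeq2 or limma-voom, and 0 had an unadjusted p under 0.05 in edgeR. The median log2 fold change was -0.07, and the median log2 CPM ratio within the deposited pairs was -0.31 (KO2 over WT6) and 0.24 (KO4 over WT8). Slc17a7 had 81.9 and 88.2 CPM in KO2 and KO4, against 111 CPM in WT6 and 78.1 CPM in WT8. Bcl11b, which encodes the projection neuron factor Ctip2, had 316 and 333 CPM in KO, against 316 and 280 CPM in WT. Nhlh1, a bHLH gene of newborn neurons, had 57.9 and 53.5 CPM in KO, against 64.4 and 56.8 CPM in WT. Neurod4, a relative of Neurod2 and Neurod6, had 4.42 and 5.35 CPM in KO, against 6.63 CPM in WT6 and 4.82 CPM in WT8.

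Cortical hem genes, which adjoin the Emx2 and Lhx2 territory, were near the floor of detection in most cases. Of 10 tested, 0 rose and 0 fell in edgeR, DESeq2 or limma-voom, 0 had an unadjusted p under 0.05 in edgeR, and the median log2 fold change was -0.18. Wnt8b, a Wnt ligand gene of the medial pallium, had 2.18 and 1.04 CPM in KO2 and KO4, against 2.44 and 2.82 CPM in WT6 and WT8. Lmx1a, a LIM homeodomain factor of the hem, had 0.49 and 0.33 CPM (9 and 6 reads) in KO, against 0.87 and 0.75 CPM (15 and 12 reads) in WT. Wnt8b and Lmx1a were the 2 of the 10 with both KO libraries below both WT libraries, beside 19.4% of all genes tested. The most abundant genes of the list, Axin2, Rspo3 and Wnt5a, had log2 fold changes of 0.04, -0.09 and -0.01. Rspo1 and Wnt2b, which encode Wnt pathway ligands, overlapped between genotypes, Rspo1 with 2.95 and 1.26 CPM in KO, against 2.27 and 4.01 CPM in WT.

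Ventral telencephalon genes had a median log2 fold change of 0.29, with 15 of 16 above 0, beside 48.9% of all genes tested. The direction differed between the deposited pairs, with a median log2 CPM ratio of 0.80 within the first (KO2 over WT6) and -0.19 within the second (KO4 over WT8). In edgeR, DESeq2 and limma-voom 0 rose and 0 fell, and 1 had an unadjusted p under 0.05 in edgeR, beside 4.7% of all genes tested. Without WT8 edgeR called 15 of the 16 higher in KO, beside 0.41% of all genes in that fit. Without WT6 edgeR called 0 of them and also 0 of all genes tested. Ebf1, Sp9, Lhx6 and Gsx2 are named because they had the smallest p of the list, and they do not stand for the rest. Both KO libraries were above both WT libraries for 3 of the 16 (Ebf1, Sp9 and Lhx6), beside 20.1% of all genes tested. Ebf1, a factor of striatal neurons, had 34.8 and 40.9 CPM in KO2 and KO4, against 21.2 CPM in WT6 and 31.4 CPM in WT8. Sp9 had 73.9 and 66.2 CPM in KO, against 38.7 and 64.3 CPM in WT. Lhx6, a factor of cortical interneurons, had 99.0 and 96.3 CPM in KO, against 69.0 and 92.9 CPM in WT, and Gsx2, a progenitor factor of the lateral ganglionic eminence, had 16.3 and 15.0 CPM in KO, against 8.66 and 15.0 CPM in WT.

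Non-neural cell types contributed transcripts to every library, and their summed levels are given beside the Emx1 pattern. The 7 microglia genes summed to 27.9 and 27.1 CPM in KO2 and KO4, against 30.5 and 35.3 CPM in WT6 and WT8. Of the 7, 4 (C1qa, C1qb, Aif1 and Mrc1) were lower in both KO libraries than in both WT libraries, beside 19.4% of all genes tested. Aif1 and Mrc1 were near the floor, Aif1 with 9 and 14 reads in KO, against 16 and 22 in WT. Mrc1, the microglial gene with an unadjusted p under 0.05 in edgeR, had 5 and 7 reads in KO, against 21 and 10 in WT. The defining genes Csf1r, Cx3cr1 and P2ry12 overlapped between genotypes, at log2 fold changes of -0.11, 0.05 and 0.05. The 7 endothelial genes summed to 213 and 202 CPM in KO, against 213 and 242 CPM in WT, with 3 of 7 lower in that sense, beside the same 19.4%. The 9 erythroid genes summed to 1004 and 907 CPM in KO, against 785 and 1481 CPM in WT, and the 5 genes of mesenchyme and meninges to 12.4 and 11.5 CPM, against 10.6 and 15.2 CPM. Of 5 choroid plexus markers 2 were tested, Ttr and Aqp1, which summed to 1.91 and 1.53 CPM in KO, against 3.95 and 1.82 CPM in WT. The 7 general neural genes, such as Sox2 of progenitors and Tubb3 of neurons, summed to 6503 and 6166 CPM in KO, against 6203 and 6832 CPM in WT. In edgeR, DESeq2 and limma-voom 0 genes of these lists or of the diencephalon, midbrain and hindbrain list were called, and 1 of 7 microglial and 1 of 7 endothelial genes had an unadjusted p under 0.05 in edgeR, beside 4.7% of all genes tested. The part of these cells in the Emx1 difference was not tested.

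Among 11368 other genes with a mean of at least 5 CPM, those whose levels over the 4 libraries lay nearest to Emx1 were Itpkb, Gm44837, Arhgdig, Suox and Inppl1. Nearness was the Euclidean distance between log2 CPM values centred on each gene's own mean, which was 0.06 for Itpkb and 0.12 for Inppl1. Itpkb encodes an inositol trisphosphate kinase, and its deviations were -0.17 and -0.27 in KO2 and KO4, against 0.25 and 0.20 in WT6 and WT8. The mean profile of the 9 genes was -0.04 and -0.07 in KO2 and KO4, against 0.19 and -0.08 in WT6 and WT8, and WT6 was its highest library. Nearest to it were Pgghg, Siah1b, Fgfr1, Neurl1a and Mif4gd, at distances between 0.03 and 0.04. With 4 libraries many genes share any such order, and nothing is said here of shared function.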

How the data were processed

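RNA was extracted with Trizol and sequenced by Illumina protocols, per the labels' protocols. Per the submitters' processing notes the tools were Bowtie2 2.2.3, TopHat2 2.0.12 and HTSeq 0.6.0 with build mm9. The roles of these tools are not given in the sources used here. Positions in the tables equal GENCODE M21 on GRCm38 for 91.2% of the 19150 joined genes and for all 9 members. The authors deposited whole read counts per gene, not normalized, in 2 tables of 1 KO and 1 WT library each, per the file headers. The authors' tables also hold a log2 fold change and an adjusted p-value per gene, by a test not given in the sources used here; 4 columns of the authors' normalized values were not used. Joining left out at most 0.018% of a library's reads.

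Counts were analysed in R 4.3.3 with edgeR 4.0.16: filterByExpr, TMM (factors from 0.971 to 1.01), quasi-likelihood F-test with genotype as the only term on all 4 libraries, and Benjamini-Hochberg adjustment at 0.05 over all 15708 genes tested. The SE is the log2 fold change over the root of F, and log2 CPM used a prior count of 2. Alternatives were other size factors, no filter, DESeq2 1.42.0, limma-voom 3.58.1, the deposited table as a term, and leaving out each library. Exon lengths are GENCODE unions. The members and lists were chosen with earlier results of these data known. Genes named were the members, H2afy, H2afy2, genes overlapping members, list members with the smallest p or defining markers, and the 5 nearest profiles. Neurog2, Slc17a7 and Sox2 illustrate lists, and Axin2, Rspo3 and Wnt5a are named as the most abundant hem genes. A gene that the rule also names is not reported here and was left out of the lists.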

Additional observations from a re-analysis of the deposited data

How the results depend on the processing

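The count of genes called by edgeR was 1 (0 higher and 1 lower in KO) and stayed so with DESeq2's size factors, without the filter and with limma-voom. DESeq2 called 4 (2 higher, 2 lower) and the deposited table as a term gave 2, both lower. Leaving out 1 library gave 0 to 104 calls, with 0 to 67 higher and 0 to 37 lower: 104 without WT8, 2 without KO4 and 0 without WT6. The median log2 fold change of the 9 genes, -0.15, ranged from -0.30 without WT8 to -0.10 without WT6. H2afy ranged from -2.29 to -2.16 on leaving out a library, and lost its call without WT6 (edgeR adjusted p = 0.314).

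Emx1, Emx2, Lhx2, Dmrta2 and Lmo3 kept their direction in all 9 alternatives, Emx1 between -0.51 and -0.43. On leaving out a library, Lhx2 ranged from -0.36 (without WT8) to -0.12 (without WT6), Lmo3 from 0.11 (without WT8) to 0.34 (without WT6), Emx2 from -0.23 to -0.16 and Dmrta2 from -0.18 to -0.12. Neurod2 ranged from -0.48 to 0.16, Neurod6 from -0.43 to 0.22, Bhlhe22 from -0.30 to 0.43 and Zbtb20 from -0.10 to 0.16. The sign of Neurod2 and Neurod6 turned without WT6, that of Bhlhe22 without KO2 or WT8 and that of Zbtb20 without KO2 or WT6. Each such fit estimates its spread from the genotype that still has 2 libraries. The numbers in the labels (2 and 4 for KO, 6 and 8 for WT) are not shared between genotypes and pair no libraries. With the deposited table as a term, Emx1 stood at -0.47 (edgeR adjusted p = 0.970) and 0 of the 9 genes were called. With 2 libraries per genotype, the 95% interval of a log2 fold change reached 0.34 to either side for the median gene.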
